A study of Homo sapiens with 14 samples.

Results

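The genes described are 34 genes of cholesterol and SREBP-driven lipid synthesis: 19 enzymes of the sterol pathway, 6 genes of SREBP control and 9 enzymes of fatty acid and glycerolipid synthesis. They were taken by name from a fixed list, by matching gene symbols to the 63140 genes of the count table, a rule that uses no measured value, although the list itself was put together with earlier results of these data known. All 34 were found, and all 34 were among the 18321 genes with enough counts to be tested. RNA was sequenced from HEK293T cells, an established line derived from human embryonic kidney and carrying SV40 large T antigen, at 24 h from transfection of an RNA duplex. The miR-34a-RS group (4 libraries, replicates 1, 2, 3 and 5) received a miR-34a duplex in which positions 13 and 14 of the guide, from its 5′ end, were abasic rSpacer residues, which keep the backbone and carry no base. The miR-34a-WT group (5 libraries) received the unmodified miR-34a duplex, and the control group (5 libraries) received AllStars, a commercial negative control siRNA. All 14 libraries thus came from transfected cells of 1 line. The comparison of miR-34a-RS with miR-34a-WT asks how the response differs when guide positions 13 and 14, beyond the seed, carry no base.

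SREBP transcription factors are made as precursors in the membrane of the endoplasmic reticulum. When sterols are scarce, SCAP escorts them to the Golgi, where proteases release a fragment that enters the nucleus and activates genes of sterol and fatty acid synthesis, and when sterols are plentiful INSIG proteins hold SCAP and its cargo back. SREBP2, the product of SREBF2, acts mainly on the sterol genes and SREBP1, the product of SREBF1, mainly on fatty acid genes, and in a kidney-derived line both supply membranes of dividing cells. A microRNA guide pairs with target RNAs mainly through its seed, and pairing further along the guide, called supplementary, can add to it.

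The guide of miR-34a and the matches in these transcripts are shown because the contrast rests on the guide's bases 13 and 14. In the guide (RefSeq, GRCh38.p14, chr1:9151735-9151756, minus strand) capitals mark the seed, bases 2 to 8. In the target windows, each ending at the last base of the match and lettered as DNA, capitals mark the seed match and, where present upstream of an 8mer or 7mer-m8, the letters AGCT that could pair with guide bases 13 to 16.
hsa-miR-34a-5p: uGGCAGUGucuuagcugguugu
SREBF2, coding sequence, 8mer (chr22:41905617-41905646, plus strand): tgattgttaAGCTgggtggtggCACTGCCA
HMGCS1, 3′ UTR, 8mer (chr5:43290445-43290474, minus strand): taatgacctctgaacagagaaaCACTGCCA
DHCR7, 3′ UTR, 7mer-m8 (chr11:71435166-71435195, minus strand): tcaagggaattccgagtgtccagCACTGCC
FASN, 3′ UTR, 7mer-m8 (chr17:82079018-82079047, minus strand): tgggaccctgtccggcccagtgcCACTGCC
LPIN1, 3′ UTR, 7mer-m8 (chr2:11825601-11825630, plus strand): ggcagtattttgaatgagtttgaCACTGCC
MVD, across the stop codon, 6mer (chr16:88652520-88652549, minus strand): cggcctgccgaagccagctgcctgACTGCC
The windows were read from GRCh38 on the principal transcript of each gene in GENCODE 29, an annotation release chosen here and not by the authors. The SREBF2 8mer ended 11 bases before the stop codon, with 9 bases between the partners of guide positions 8 and 13, and in a shorter isoform of the annotation the same bases lie in the 3′ UTR. The MVD 6mer began with the last base of the stop codon, with agct 4 bases upstream by the same count. A seed match of 6 bases or more with AGCT 1 to 15 bases upstream was found in 2 of the 34 genes, SREBF2 and MVD. That was 5.88%, against 8.91% of 13608 tested genes. A match is a description of letters, and binding at these places was not measured.

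Libraries held 22.24 to 36.26 M counts. Beyond counting error, libraries of a group varied by a common coefficient of variation of 0.0615. Mitochondrially encoded genes took 2.19% of counts in miR-34a-RS replicate 2, the lowest share, and between 2.6% and 3.30% in the other 13 libraries. All 6 markers of HEK293T cells were expressed, with summed levels of 390.5 to 408 CPM with miR-34a-RS, 389.9 to 426 CPM with miR-34a-WT and 406 to 422 CPM in control. VIM was the largest part of these sums, which hide changes of single markers. NEFL averaged 39.2 CPM with miR-34a-RS, 37.8 CPM with miR-34a-WT and 56.0 CPM in control. KRT8 went the other way, at 13.1, 10.9 and 9.70 CPM in the same order, and PAX2 averaged at most 2.02 CPM. Markers of hepatocytes, major producers of cholesterol, summed to under 0.5 CPM in every library and none of the 5 was tested. Markers of adipocytes summed to at most 2.30 CPM and those of blood cells to at most 3.11 CPM. Fibroblast markers summed to 28.0 to 33.97 CPM with miR-34a-RS, 27.3 to 31.9 CPM with miR-34a-WT and 24.8 to 34.1 CPM in control. Most of this was COL1A1, which averaged 29.8 CPM with miR-34a-RS, 28.0 CPM with miR-34a-WT and 27.7 CPM in control. COL1A2 was at 0 in every library. The part of these markers in the results was not tested. In such bulk samples fewer expressing cells and less RNA per cell cannot be told apart. Whether replicates came from separate cultures is not stated in the labels. The p-values therefore reflect variation among these libraries, and that variation may be technical.

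SREBF2 and 5 of 19 sterol enzymes were higher in miR-34a-RS than in miR-34a-WT libraries, with the largest differences in SREBF2, MVD and HMGCS1. Of the 34 genes, 7 were higher and 0 lower at an adjusted p under 0.05 (edgeR quasi-likelihood test, Benjamini-Hochberg adjusted over the 18321 genes). Of all tested genes 1.03% were higher and 0.535% lower, 1.56% in total. At an unadjusted p under 0.05 there were 13 of the 34, against 2227 of all 18321 tested genes. DESeq2 called 8 of the 34 higher and 0 lower. The 7 were the sterol enzymes MVD, HMGCS1, TM7SF2, IDI1 and FDFT1, the transcription factor gene SREBF2 and the fatty acid enzyme ACSS2. The fold change was above 0 on the log2 scale for 31 of the 34, with a median of 0.09, against 8935 of all 18321 tested genes and a median of -0.0029. By role the median log2 fold change was 0.15 over the 19 sterol enzymes, 0.05 over the 6 genes of SREBP control and 0.07 over the 9 fatty acid enzymes. In 7 genes all miR-34a-RS libraries lay above all miR-34a-WT libraries, against 2.66% of all tested genes, and in 0 they lay below, against 2.16%. These 7 were the called genes without TM7SF2 and with SQLE, the squalene epoxidase.

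**Figure D1:**
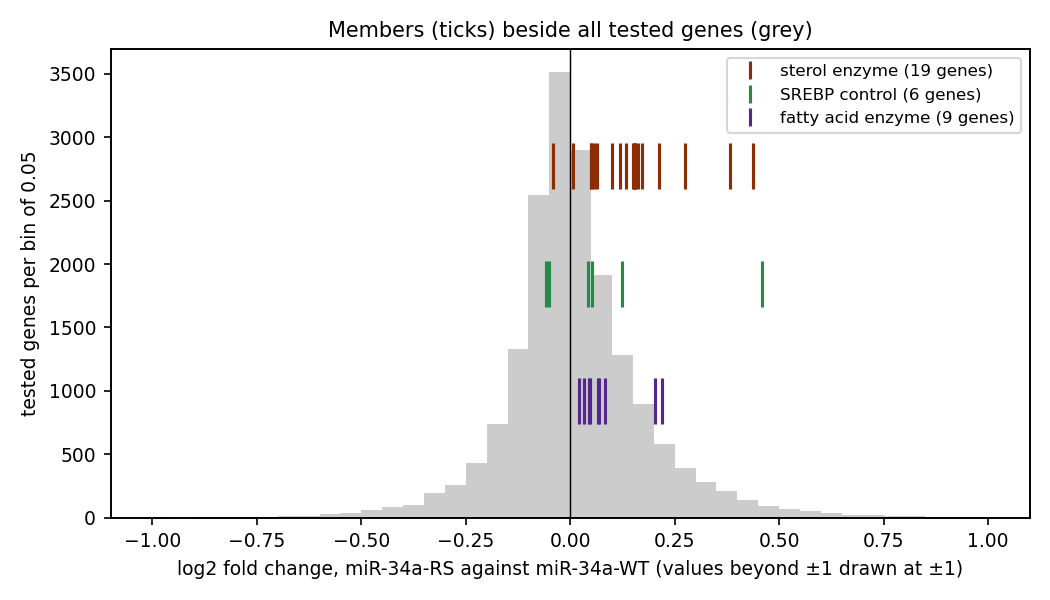
Log2 fold change of miR-34a-RS against miR-34a-WT on the horizontal axis, with the number of tested genes per bin of 0.05 in grey and each of the 34 genes as a tick, in a row for each role. Of the ticks, 31 lie right of 0, and the farthest right are SREBF2 at 0.46, MVD at 0.44 and HMGCS1 at 0.38.

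Libraries of these groups that share a replicate number deviated together, so they were also compared as 4 pairs, with miR-34a-WT replicate 4 left without a partner. With the replicate number as a block, 17 of the 34 genes were higher and 0 lower, against 5.97% and 6.79% of all tested genes. All 7 were among the 17, and the other 10 were ACAT2, MVK, PMVK, FDPS, SQLE, MSMO1, SREBF1, FASN, FADS1 and FADS2. In 21 of the 34 genes (61.8%) miR-34a-RS was above miR-34a-WT in all 4 pairs, against 2560 of 18321 tested genes (14%). In 0 of the 34 it was below in all 4 pairs, against 2867 of 18321 (15.6%). Without the block the count of 7 moved with single libraries. It was 3 without miR-34a-RS replicate 2, miR-34a-WT replicate 3 or miR-34a-WT replicate 5. It was 4 without miR-34a-RS replicate 3 or 5, miR-34a-WT replicate 1 or control replicate 2 or 4, and 10 without miR-34a-RS replicate 1. SREBF2, HMGCS1 and MVD kept their call in all 20 alternatives.

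**Figure D2:**
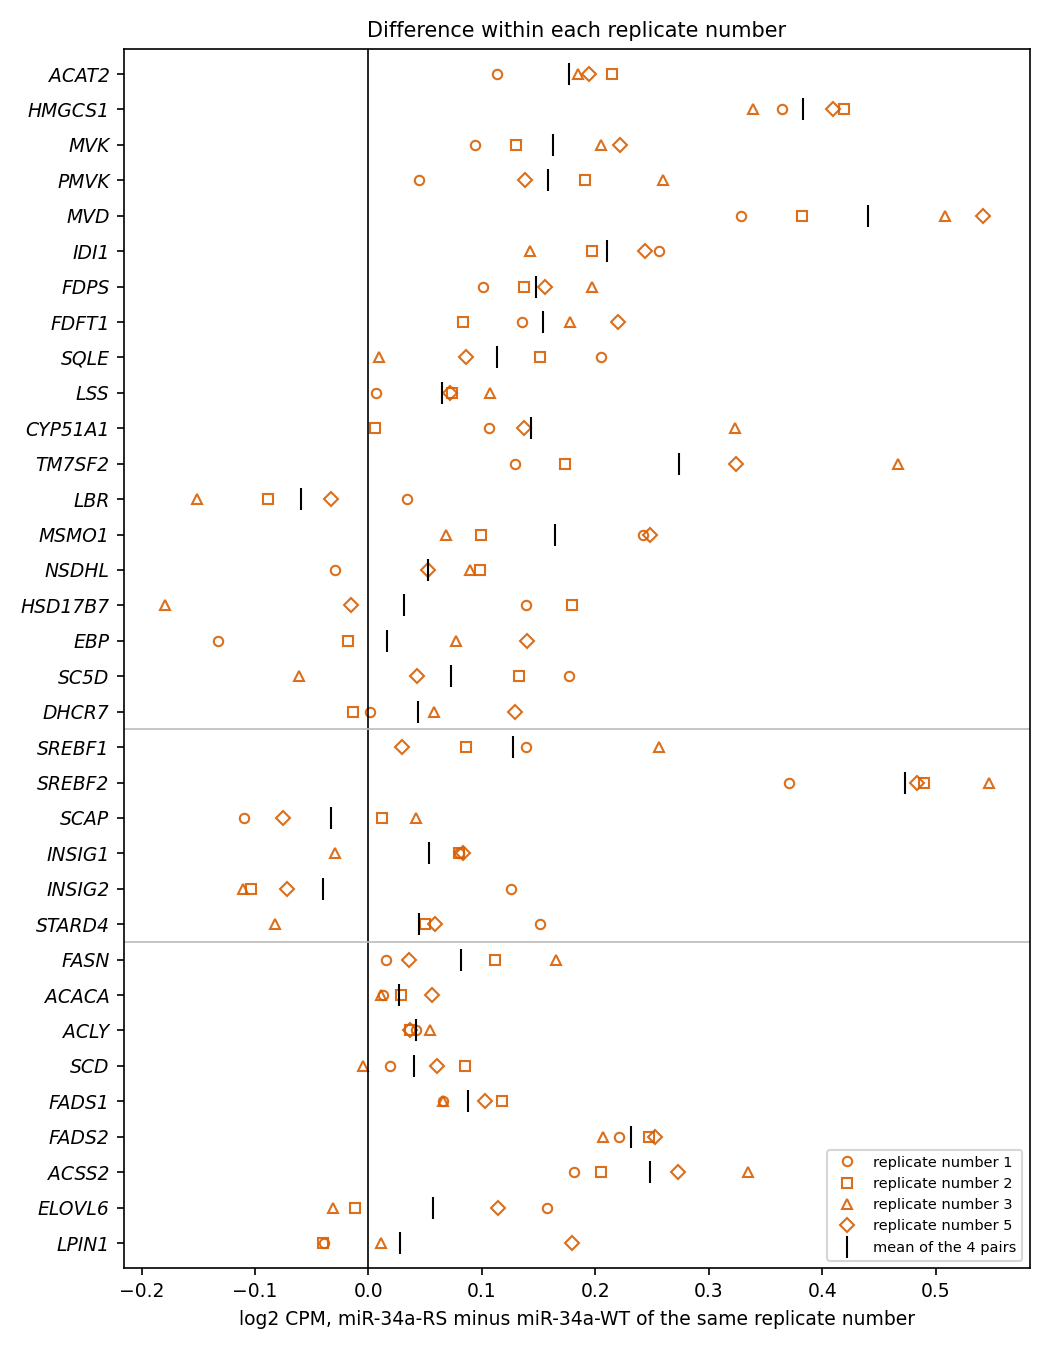
Difference in log2 CPM of miR-34a-RS minus miR-34a-WT within each replicate number (open symbols, 4 pairs) and their mean (bar) for each of the 34 genes, with sterol enzymes at the top, SREBP control in the middle and fatty acid enzymes at the bottom. The pairs of SREBF2 lie between 0.37 and 0.55, and those of FADS2 between 0.21 and 0.25, while those of HSD17B7 and EBP lie on both sides of 0.

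Values in single libraries are given below in the order replicate 1, 2, 3 and 5 for miR-34a-RS and replicate 1 to 5 for the other groups, in CPM, the library's counts scaled to a common total with TMM factors. Among the genes of SREBP control, SREBF2 had 136, 148, 151 and 151 CPM in the miR-34a-RS libraries, 105, 105, 103, 111 and 108 CPM in the miR-34a-WT libraries and 156, 179, 169, 175 and 187 CPM in the control libraries. The 3 groups did not overlap: every miR-34a-RS library lay above every miR-34a-WT library and below every control library. SREBF2 was higher by 0.46 on the log2 scale in miR-34a-RS than in miR-34a-WT libraries (SE 0.05, adjusted p = 3.24e-06, edgeR quasi-likelihood test). Against control its log2 fold change was -0.24 with miR-34a-RS (SE 0.05, adjusted p = 4.09e-04) and -0.70 with miR-34a-WT (SE 0.05, adjusted p = 7.78e-12). It is the gene whose coding sequence holds the 8mer with AGCT shown above, and the part of that match in these values was not tested.

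SREBF1, which encodes SREBP1, had 68.2, 71.4, 77.7 and 70.4 CPM in the miR-34a-RS libraries, 61.9, 67.2, 65.04, 66.96 and 68.9 CPM in the miR-34a-WT libraries and 55.1, 64.1, 58.5, 62.2 and 67.3 CPM in the control libraries. Of the 4 miR-34a-RS libraries 3 lay above every miR-34a-WT library, and all 4 lay above every control library. The log2 difference between the miRNAs was 0.12 (95% interval 0.01 to 0.24, adjusted p = 0.362), and 0.13 with adjusted p = 0.0116 with the replicate block. Against control SREBF1 was higher by 0.23 with miR-34a-RS (adjusted p = 0.00214), and the value with miR-34a-WT was 0.10 (adjusted p = 0.119, called without control replicate 5 and with a replicate block, with adjusted p down to 0.0111). Its exons share 6.92% of their length with RAI1 on the opposite strand, and the kit does not mark strand, so its level is uncertain.

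INSIG2, an ER retention protein of SCAP, had 34.6, 31.01, 27.01 and 27.9 CPM in the miR-34a-RS libraries, 31.7, 33.3, 29.2, 32.4 and 29.3 CPM in the miR-34a-WT libraries and 27.4, 24.1, 26.5, 26.2 and 27.9 CPM in the control libraries. The miR-34a-WT libraries all lay above the control libraries, the miR-34a-RS libraries overlapped both, and replicate 1 was the highest of miR-34a-RS. INSIG2 was higher than in control by 0.19 with miR-34a-RS (adjusted p = 0.0283, lost without miR-34a-RS replicate 1 or 2, or without control replicate 2 or 4, with adjusted p up to 0.135) and by 0.24 with miR-34a-WT (adjusted p = 0.00335). STARD4, which moves sterols between membranes, had 47.9, 41.5, 38.9 and 40.6 CPM in the miR-34a-RS libraries, 43.1, 40.1, 41.2, 41.6 and 39 CPM in the miR-34a-WT libraries and 36.96, 34.97, 33.8, 35.98 and 36.5 CPM in the control libraries. Both miRNA groups lay above control with no overlap, and they overlapped each other. STARD4 rose by 0.25 with miR-34a-RS and by 0.20 with miR-34a-WT against control on the log2 scale (SE 0.06 and 0.05, adjusted p = 0.00117 and 0.00335). The other genes of this role were not called over all 14 libraries. SCAP averaged 167 ± 16.4 CPM with miR-34a-RS, 173 ± 12.7 CPM with miR-34a-WT and 187 ± 18.5 CPM in control (SD, n = 4, 5 and 5), and INSIG1 averaged 235 ± 21.8 CPM with miR-34a-RS, 226 ± 15.7 CPM with miR-34a-WT and 219 ± 9.78 CPM in control. Between the miRNAs the 95% interval of the log2 difference was -0.20 to 0.09 for SCAP and -0.07 to 0.17 for INSIG1. With miR-34a-RS SCAP was called lower than control without miR-34a-RS replicate 3, without control replicate 1 and with a replicate block, with adjusted p down to 0.0117. With a replicate block SCAP was also called lower than control with miR-34a-WT (adjusted p = 0.0208) and INSIG1 higher with miR-34a-RS (adjusted p = 0.0334).

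**Figure D3:**
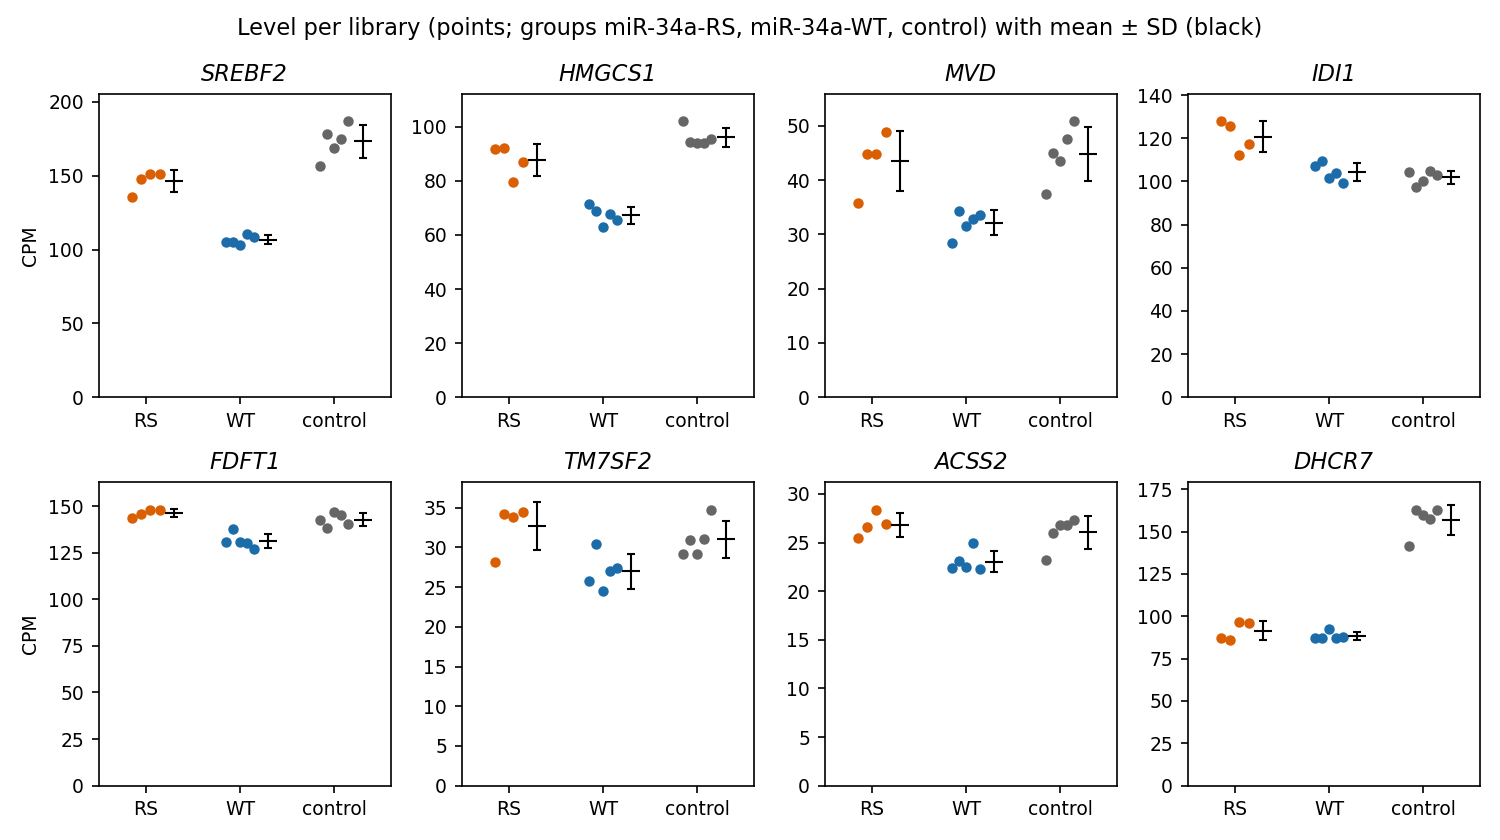
Level in CPM (vertical axis, from 0) of the 7 genes higher in miR-34a-RS than in miR-34a-WT libraries and of DHCR7, with a point for each library and mean ± SD in black (n = 4 for miR-34a-RS, 5 for miR-34a-WT and 5 for control). The groups of SREBF2 and HMGCS1 stand apart in 3 steps, the miR-34a-RS points of MVD overlap those of control, those of IDI1 lie above both other groups, and both miRNA groups of DHCR7 lie below 97 CPM.

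The early enzymes build isopentenyl units from acetyl-CoA. HMGCS1, HMG-CoA synthase, had 91.9, 92.2, 79.7 and 86.9 CPM in the miR-34a-RS libraries, 71.4, 68.99, 63.01, 67.8 and 65.4 CPM in the miR-34a-WT libraries and 102, 94.5, 94.2, 94.01 and 95.6 CPM in the control libraries. Its 3 groups did not overlap, with miR-34a-WT lowest and control highest. HMGCS1 was higher by 0.38 on the log2 scale in miR-34a-RS than in miR-34a-WT libraries (SE 0.05, adjusted p = 6.58e-05). Against control it fell by 0.13 with miR-34a-RS (SE 0.05, adjusted p = 0.0443) and by 0.51 with miR-34a-WT (SE 0.05, adjusted p = 3.46e-09). The call with miR-34a-RS against control was lost in 15 of 20 alternatives (with DESeq2, with RLE size factors, with upper-quartile size factors, with no filter on low counts, in a fit of the compared groups alone, without miR-34a-RS replicate 3 or 5, without miR-34a-WT replicate 2, 4 or 5, or without control replicate 1, 2, 3, 4 or 5), with adjusted p up to 0.224.

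MVD, the decarboxylase that forms isopentenyl diphosphate, had 35.8, 44.8, 44.8 and 48.9 CPM in the miR-34a-RS libraries, 28.5, 34.3, 31.5, 32.8 and 33.6 CPM in the miR-34a-WT libraries and 37.5, 45.1, 43.5, 47.5 and 50.9 CPM in the control libraries. Every miR-34a-RS and every control library lay above every miR-34a-WT library, and miR-34a-RS and control overlapped. In each group replicate 1 was the lowest. MVD was higher by 0.44 in miR-34a-RS than in miR-34a-WT libraries (SE 0.08, adjusted p = 0.00418) and fell by 0.48 with miR-34a-WT against control (SE 0.08, adjusted p = 2.53e-05). With miR-34a-RS its log2 fold change against control was -0.04 (95% interval -0.21 to 0.13, adjusted p = 0.736).

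IDI1, which isomerises isopentenyl diphosphate, had 128, 125, 112 and 117 CPM in the miR-34a-RS libraries, 107, 109, 102, 104 and 99.2 CPM in the miR-34a-WT libraries and 104, 97.4, 100.3, 105 and 103 CPM in the control libraries. The miR-34a-RS libraries lay above all others, and miR-34a-WT and control overlapped. IDI1 was higher by 0.21 in miR-34a-RS than in miR-34a-WT libraries (SE 0.05, adjusted p = 0.0173) and by 0.24 with miR-34a-RS against control (adjusted p = 1.99e-04). The call between the miRNAs was lost without miR-34a-RS replicate 2, miR-34a-WT replicate 3 or miR-34a-WT replicate 5, with adjusted p up to 0.0888. With miR-34a-WT the value against control was 0.03 (95% interval -0.06 to 0.12).

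ACAT2, the cytosolic thiolase that joins acetyl-CoA units, had 98.1, 114, 103 and 109.7 CPM in the miR-34a-RS libraries, 90.7, 98.3, 90.8, 96.1 and 95.9 CPM in the miR-34a-WT libraries and 94.9, 90.98, 96.6, 93.5 and 92.5 CPM in the control libraries. The lowest miR-34a-RS library lay just under the highest miR-34a-WT library, and all 4 lay above control. Its log2 difference between the miRNAs was 0.17 (adjusted p = 0.0678, and 5.78e-05 with the replicate block), it was called also without miR-34a-RS replicate 1, with DESeq2 and with upper-quartile size factors, and it was higher by 0.18 with miR-34a-RS than in control (adjusted p = 0.00382). ACAT2 shares exon bases with 3 genes on the opposite strand, up to 33.9% of its exon length with 1 of them, and 397 bases with TCP1, which averaged 760.0 CPM, so its counts are uncertain.

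MVK, mevalonate kinase, had 34.5, 37.9, 42.01 and 41.8 CPM in the miR-34a-RS libraries, 32.4, 34.6, 36.4, 38.6 and 35.8 CPM in the miR-34a-WT libraries and 26.1, 30.2, 30.4, 31.7 and 32.1 CPM in the control libraries. Both miRNA groups lay above control with no overlap, and they overlapped each other. MVK rose by 0.38 with miR-34a-RS and by 0.24 with miR-34a-WT against control (SE 0.07 and 0.06, adjusted p = 7.07e-05 and 0.00323), the largest rise of a list gene with miR-34a-RS. Between the miRNAs its log2 difference was 0.13 (adjusted p = 0.421, and 0.00309 with the replicate block). MVK shares 306 exon bases with MMAB on the opposite strand, and MMAB averaged 48.9 CPM over all libraries.

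PMVK, phosphomevalonate kinase, had 33.3, 44.8, 36.3 and 41.7 CPM in the miR-34a-RS libraries, 32.3, 39.3, 30.3, 35.3 and 37.9 CPM in the miR-34a-WT libraries and 36.9, 32.6, 32.7, 33.2 and 38.1 CPM in the control libraries. All 3 groups overlapped. FDPS, farnesyl diphosphate synthase, had 99.5, 111, 105 and 111 CPM in the miR-34a-RS libraries, 92.8, 101, 91.5, 95.6 and 99.7 CPM in the miR-34a-WT libraries and 105, 98.3, 92.4, 93.98 and 93.9 CPM in the control libraries. The miR-34a-RS libraries of FDPS filled the upper part of a range shared with both other groups, and its exons share 18.6% of their length with RUSC1-AS1 on the opposite strand. The log2 difference between the miRNAs was 0.15 for PMVK and 0.15 for FDPS, with adjusted p = 0.469 and 0.155. With the replicate block both were called, at 0.00528 and 6.91e-04, and FDPS was also called without miR-34a-RS replicate 1. With miR-34a-RS PMVK gave 0.17 against control (adjusted p = 0.107), and it was called without miR-34a-RS replicate 1 and with no filter on low counts, with adjusted p down to 0.0123. FDPS was also higher by 0.14 with miR-34a-RS than in control (adjusted p = 0.0294, lost without miR-34a-RS replicate 2 or 5 or control replicate 4 or 5, with adjusted p up to 0.0982).

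The next enzymes form squalene and close the sterol rings. FDFT1, squalene synthase, had 144, 146, 148 and 148 CPM in the miR-34a-RS libraries, 131, 137, 131, 130.4 and 127 CPM in the miR-34a-WT libraries and 143, 138, 147, 145 and 140.4 CPM in the control libraries. The miR-34a-RS libraries all lay above the miR-34a-WT libraries and within or just above the range of control, and miR-34a-WT lay below control with no overlap. FDFT1 was higher by 0.16 in miR-34a-RS than in miR-34a-WT libraries (SE 0.04, adjusted p = 0.0459), a call lost in 14 of 20 alternatives (with RLE size factors, with no filter on low counts, in a fit of the compared groups alone, without miR-34a-RS replicate 2, 3 or 5, without miR-34a-WT replicate 1, 3, 4 or 5, or without control replicate 2, 3, 4 or 5), with adjusted p up to 0.151. With miR-34a-WT it fell by 0.12 against control (adjusted p = 0.0133, lost with no filter on low counts, without miR-34a-WT replicate 4, or without control replicate 3, with adjusted p up to 0.168).

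SQLE, squalene epoxidase, had 182, 175, 166 and 167 CPM in the miR-34a-RS libraries, 158, 158, 165, 157 and 158 CPM in the miR-34a-WT libraries and 147, 137, 141, 143 and 137 CPM in the control libraries. Its 3 groups did not overlap, with miR-34a-RS highest and control lowest. SQLE rose by 0.29 with miR-34a-RS and by 0.17 with miR-34a-WT against control (SE 0.04 and 0.04, adjusted p = 4.71e-06 and 0.00103). Between the miRNAs the log2 difference was 0.12, with adjusted p = 0.190 and, with the replicate block, 0.00685. LSS, lanosterol synthase, averaged 137 ± 10.5 CPM with miR-34a-RS, 132 ± 7.26 CPM with miR-34a-WT and 152 ± 15.8 CPM in control (SD, n = 4, 5 and 5), and it fell by 0.21 with miR-34a-WT against control (adjusted p = 0.00749). With miR-34a-RS its value against control was -0.16 (adjusted p = 0.0607), and it was called without miR-34a-RS replicate 5, without control replicate 1 and with a replicate block, with adjusted p down to 0.0105.

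The later enzymes turn lanosterol into cholesterol. TM7SF2, a sterol C14 reductase, had 28.2, 34.3, 33.9 and 34.4 CPM in the miR-34a-RS libraries, 25.8, 30.4, 24.5, 27.02 and 27.5 CPM in the miR-34a-WT libraries and 29.1, 30.9, 29.2, 31.02 and 34.8 CPM in the control libraries. In miR-34a-RS 3 libraries lay above every miR-34a-WT library and replicate 1 lay inside their range. TM7SF2 was higher by 0.27 in miR-34a-RS than in miR-34a-WT libraries (SE 0.07, adjusted p = 0.0398), a call lost in 10 of 20 alternatives (in a fit of the compared groups alone, without miR-34a-RS replicate 2, 3 or 5, without miR-34a-WT replicate 1, 3, 4 or 5, or without control replicate 2 or 4), with adjusted p up to 0.157. Against control it fell by 0.19 with miR-34a-WT (adjusted p = 0.0196, lost without miR-34a-WT replicate 3 or 4, or without control replicate 5, with adjusted p up to 0.0807). LBR, the lamin B receptor and the other sterol C14 reductase, averaged 425 ± 32.5 CPM with miR-34a-RS, 437 ± 23.8 CPM with miR-34a-WT and 451 ± 15.3 CPM in control. LBR was not called over all 14 libraries, and with miR-34a-RS it was called lower than control without miR-34a-RS replicate 1 (adjusted p = 0.0278).

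MSMO1, the C4 methylsterol oxidase, had 79.1, 69.3, 66.1 and 72.6 CPM in the miR-34a-RS libraries, 66.9, 64.7, 63.1, 64.97 and 61.2 CPM in the miR-34a-WT libraries and 67.8, 62.2, 70.9, 70.2 and 67.2 CPM in the control libraries. All but 1 of the miR-34a-RS libraries lay above every miR-34a-WT library. Its log2 difference between the miRNAs was 0.16 (adjusted p = 0.147, and 8.32e-04 with the replicate block). NSDHL, the C4 sterol dehydrogenase, had 71.6, 80.2, 77.7 and 77.7 CPM in the miR-34a-RS libraries, 73.1, 74.9, 73.04, 71.1 and 74.9 CPM in the miR-34a-WT libraries and 61.4, 61.8, 62.5, 61.7 and 63.2 CPM in the control libraries. Both miRNA groups lay above control, whose 5 libraries spanned under 2 CPM. NSDHL rose by 0.31 with miR-34a-RS and by 0.24 with miR-34a-WT against control (SE 0.04 and 0.04, adjusted p = 4.02e-06 and 3.85e-05).

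DHCR7, which makes cholesterol from 7-dehydrocholesterol, had 87.01, 86.2, 96.6 and 96.1 CPM in the miR-34a-RS libraries, 86.95, 87.1, 92.8, 87.2 and 87.8 CPM in the miR-34a-WT libraries and 141, 163, 159.9, 157 and 163 CPM in the control libraries. Both miRNA groups lay far below control and overlapped each other. It had the largest fall among the 34 genes, by 0.78 with miR-34a-RS and by 0.83 with miR-34a-WT on the log2 scale (SE 0.05 and 0.05, adjusted p = 6.24e-12 and 3.88e-13). Between the miRNAs the log2 difference was 0.05 (95% interval -0.05 to 0.15), and the 7mer-m8 in the 3′ UTR of DHCR7 shown above has no AGCT in its window.

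Of the remaining sterol enzymes, HSD17B7, a 3-keto-sterol reductase, averaged 20.04 ± 1.36 CPM with miR-34a-RS, 19.3 ± 1.31 CPM with miR-34a-WT and 17 ± 1.13 CPM in control (SD, n = 4, 5 and 5). It rose by 0.24 with miR-34a-RS and by 0.18 with miR-34a-WT against control (adjusted p = 0.00609 and 0.0235), and the second call was lost without miR-34a-WT replicate 3 (adjusted p = 0.0906). EBP, a sterol isomerase, averaged 31.5 ± 3.31 CPM with miR-34a-RS, 31.3 ± 1.37 CPM with miR-34a-WT and 30.6 ± 2.0 CPM in control, and SC5D, the sterol C5 desaturase, averaged 141 ± 12.95 CPM with miR-34a-RS, 132 ± 8.44 CPM with miR-34a-WT and 132 ± 8.09 CPM in control. CYP51A1, the lanosterol demethylase, averaged 5.98 ± 1.19 CPM with miR-34a-RS, 5.36 ± 1.28 CPM with miR-34a-WT and 5.74 ± 1.05 CPM in control. None of these 3 was called over all 14 libraries, and with miR-34a-RS SC5D was called higher than control without control replicate 1 (adjusted p = 0.0473). The exons of CYP51A1 share 79.4% of their length with a same-strand gene model of the annotation, AC000120.2, and reads that fit both may have been left out of the count, so its level is uncertain.

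Among the fatty acid enzymes, FASN, fatty acid synthase, had 909, 915, 1105 and 1068 CPM in the miR-34a-RS libraries, 899.7, 847, 985, 993 and 1042 CPM in the miR-34a-WT libraries and 1008, 1210.1, 1183, 1219 and 1284 CPM in the control libraries. The groups overlapped, and control held the 4 highest values. FASN fell by 0.24 with miR-34a-RS and by 0.31 with miR-34a-WT against control (SE 0.07 and 0.07, adjusted p = 0.00986 and 5.91e-04), and the call with miR-34a-RS was lost without miR-34a-RS replicate 1 (adjusted p = 0.0550). Between the miRNAs the log2 difference was 0.07 (adjusted p = 0.776, and 0.0244 with the replicate block).

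SCD, stearoyl-CoA desaturase, had 815, 819, 763 and 781 CPM in the miR-34a-RS libraries, 804, 772, 766, 750.3 and 749 CPM in the miR-34a-WT libraries and 942, 938, 919.6, 916 and 865 CPM in the control libraries. Both miRNA groups lay below every control library and overlapped each other. SCD fell by 0.21 with miR-34a-RS and by 0.25 with miR-34a-WT (SE 0.04 and 0.04, adjusted p = 3.29e-04 and 8.59e-06). ACSS2, which activates acetate to acetyl-CoA, had 25.4, 26.6, 28.4 and 26.9 CPM in the miR-34a-RS libraries, 22.4, 23.1, 22.5, 24.9 and 22.3 CPM in the miR-34a-WT libraries and 23.2, 26.01, 26.8, 26.8 and 27.4 CPM in the control libraries. The miR-34a-RS libraries lay above every miR-34a-WT library and within or just above the range of control. ACSS2 was higher by 0.22 in miR-34a-RS than in miR-34a-WT libraries (SE 0.06, adjusted p = 0.0498), the call nearest the threshold. It was lost in 12 of 20 alternatives (with RLE size factors, in a fit of the compared groups alone, without miR-34a-RS replicate 2, 3 or 5, without miR-34a-WT replicate 1, 2, 3 or 5, or without control replicate 2, 3 or 4), with adjusted p up to 0.210. Against control ACSS2 fell by 0.17 with miR-34a-WT (adjusted p = 0.0119, lost with no filter on low counts, or without control replicate 3, with adjusted p up to 0.0572).

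FADS1 and FADS2 encode the delta-5 and delta-6 desaturases of polyunsaturated fatty acids. FADS1 had 142, 152, 136 and 145 CPM in the miR-34a-RS libraries, 135, 139.8, 129.7, 137 and 135 CPM in the miR-34a-WT libraries and 136, 142, 127, 129 and 127 CPM in the control libraries. FADS2 had 70.7, 85.97, 74.1 and 81.6 CPM in the miR-34a-RS libraries, 60.6, 72.4, 64.2, 73.1 and 68.5 CPM in the miR-34a-WT libraries and 72.1, 79.7, 70.2, 75.8 and 80.1 CPM in the control libraries. In both genes the groups overlapped, while each miR-34a-RS library lay above the miR-34a-WT library of its own number. Within pairs the log2 difference was 0.07, 0.12, 0.07 and 0.10 for FADS1 and 0.22, 0.25, 0.21 and 0.25 for FADS2. The difference between the miRNAs was 0.08 and 0.20, with adjusted p = 0.495 and 0.115, and 0.0344 and 1.41e-06 with the replicate block. FADS2 was also called without miR-34a-RS replicate 1 and with no filter on low counts. These genes share 490 exon bases on opposite strands, so reads there cannot be told apart. FADS1 was higher by 0.12 with miR-34a-RS than in control (adjusted p = 0.0424), a call lost with no filter on low counts, in a fit of the compared groups alone, without miR-34a-RS replicate 2 or 5, or without control replicate 3, 4 or 5, with adjusted p up to 0.161. FADS2 fell by 0.16 with miR-34a-WT against control (adjusted p = 0.0393), a call lost with DESeq2, with RLE size factors, with upper-quartile size factors, without miR-34a-RS replicate 5, without miR-34a-WT replicate 1, 3 or 5, or without control replicate 1, 2, 4 or 5, with adjusted p up to 0.120.

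ACACA, acetyl-CoA carboxylase, averaged 187 ± 7.19 CPM with miR-34a-RS, 184 ± 5.47 CPM with miR-34a-WT and 187 ± 9.07 CPM in control, and ACLY, ATP citrate lyase, averaged 886 ± 28 CPM with miR-34a-RS, 867 ± 26.1 CPM with miR-34a-WT and 843 ± 21.9 CPM in control (SD, n = 4, 5 and 5). Neither was called by edgeR's quasi-likelihood test, while DESeq2 called ACLY higher than control with miR-34a-RS (adjusted p = 0.0480). The 95% interval of the log2 difference between the miRNAs was -0.07 to 0.11 for ACACA and -0.05 to 0.12 for ACLY. ELOVL6, an elongase of saturated fatty acids, averaged 59.1 ± 3.80 CPM with miR-34a-RS, 56.4 ± 2.92 CPM with miR-34a-WT and 62.4 ± 4.27 CPM in control, and it fell by 0.15 with miR-34a-WT against control (adjusted p = 0.0296, lost with RLE size factors, with no filter on low counts, without miR-34a-RS replicate 5, without miR-34a-WT replicate 4 or 5, or without control replicate 1, 3 or 4, with adjusted p up to 0.171). LPIN1, a phosphatidate phosphatase of glycerolipid synthesis, averaged 28.8 ± 2.63 CPM with miR-34a-RS, 27.9 ± 1.30 CPM with miR-34a-WT and 24.8 ± 1.88 CPM in control. It rose by 0.22 with miR-34a-RS and by 0.17 with miR-34a-WT against control (adjusted p = 0.0105 and 0.0275), and its 3′ UTR and its coding sequence both hold a seed match. The second of these calls was lost without miR-34a-WT replicate 2 or 5, or without control replicate 3, with adjusted p up to 0.0651.

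Against control SREBF2, HMGCS1, DHCR7, SCD and FASN were lower with both duplexes, while MVK, SQLE, NSDHL, HSD17B7, INSIG2, STARD4 and LPIN1 were higher with both. With miR-34a-RS 12 of the 34 genes were higher than in control and 5 lower, against 16.2% and 18.4% of all tested genes (17 called, against 34.6%). With miR-34a-WT 7 were higher and 12 lower, against 18.9% and 21.3% (19 called, against 40.2%). The median log2 fold change of the 34 genes was 0.08 with miR-34a-RS and -0.02 with miR-34a-WT, beside -0.01 and -0.02 over all tested genes. By role with miR-34a-RS, 7 of 19 sterol enzymes were higher and 2 lower, 3 of 6 genes of SREBP control were higher and 1 lower, and 2 of 9 fatty acid enzymes were higher and 2 lower. By role with miR-34a-WT, 4 of 19 sterol enzymes were higher and 6 lower, 2 of 6 genes of SREBP control were higher and 1 lower, and 1 of 9 fatty acid enzymes was higher and 5 lower. With miR-34a-RS 9 genes lay above control and 4 below it with no overlap of libraries, against 12.6% and 14.4% of all tested genes. With miR-34a-WT 6 lay above and 6 below, against 13.8% and 15.1%. These comparisons share the control libraries, and each shares libraries with the comparison of the miRNAs, so they are not independent of each other.

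**Figure D4:**
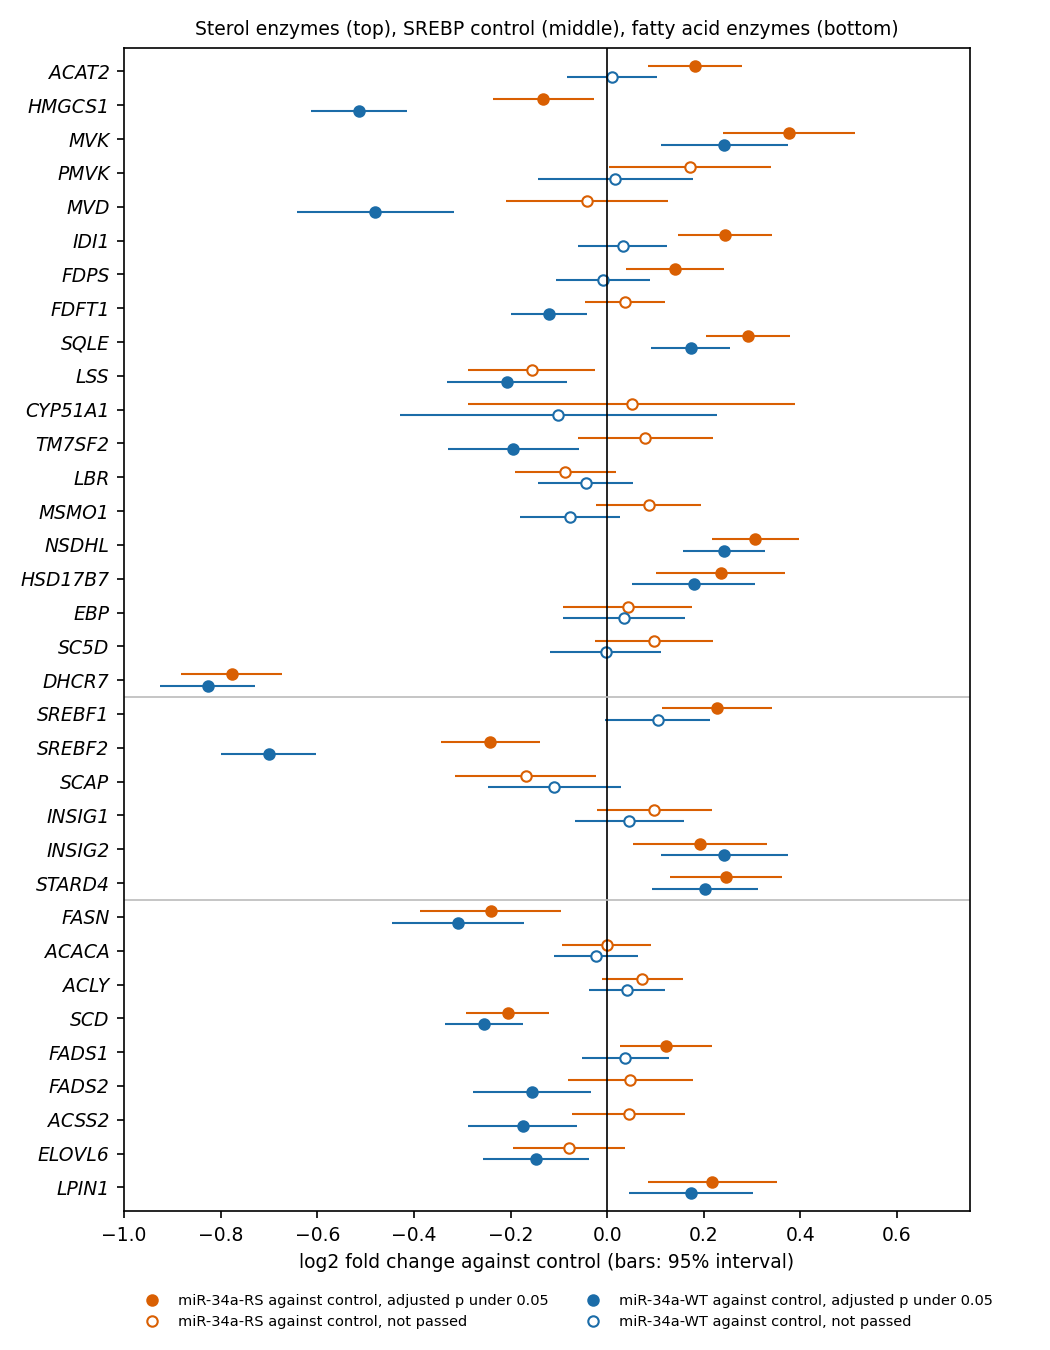
Log2 fold change against control of the 34 genes with 95% intervals, for miR-34a-RS (orange, upper of each pair) and miR-34a-WT (blue, lower), where filled points passed an adjusted p of 0.05 in edgeR's quasi-likelihood test. DHCR7 lies near -0.8 for both, SREBF2, HMGCS1 and MVD lie lower for miR-34a-WT than for miR-34a-RS, and MVK, NSDHL and SQLE lie right of 0 for both.

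The genes higher in miR-34a-RS than in miR-34a-WT libraries stood in different places relative to control. MVD, FDFT1, TM7SF2 and ACSS2 had passed the test as lower than control with miR-34a-WT and did not pass it with miR-34a-RS, where their log2 fold changes against control were -0.04, 0.04, 0.08 and 0.04. SREBF2 and HMGCS1 were lower than control with both duplexes. IDI1 was higher than control with miR-34a-RS and not called with miR-34a-WT. Per library, the median over the 34 genes of log2 CPM minus the control mean was 0.04, 0.11, 0.04 and 0.12 in the miR-34a-RS libraries, -0.05, -0.02, -0.05, -0.01 and -0.04 in the miR-34a-WT libraries, and from -0.02 to 0.01 in the control libraries. All 4 miR-34a-RS medians were above all miR-34a-WT medians. By role this held only for the fatty acid enzymes. Over the sterol enzymes the median of miR-34a-WT replicate 2 (0.06) lay above that of miR-34a-RS replicate 1 (0.04). Over the genes of SREBP control miR-34a-RS replicates 3 and 5 (0.01 and 0.03) lay below every miR-34a-WT library, and replicates 1 and 2 (0.20 and 0.18) above.

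**Figure D5:**
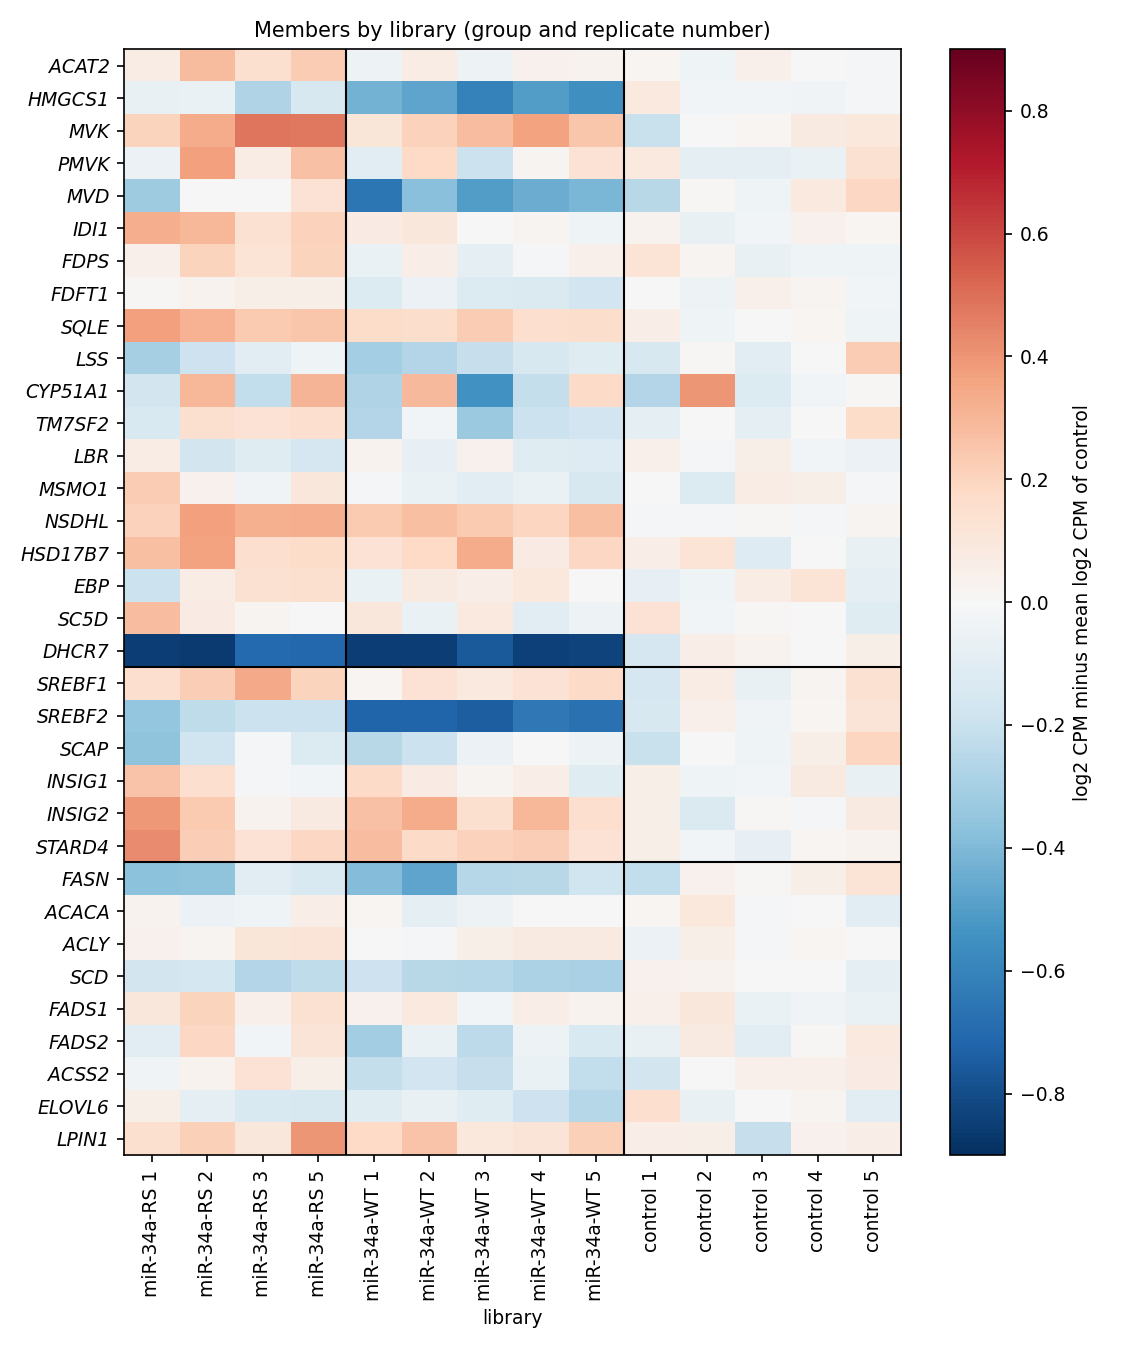
Log2 CPM minus the mean log2 CPM of control (colour, red above and blue below) for the 34 genes in rows and the 14 libraries in columns, grouped as miR-34a-RS, miR-34a-WT and control. DHCR7 is dark blue in all 9 miRNA libraries, SREBF2, HMGCS1 and MVD are darker in the miR-34a-WT than in the miR-34a-RS columns, and replicate 1 is the lowest column of each group for MVK, MVD, LSS, SREBF1 and SCAP.

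Within groups some of the genes followed the replicate number, a pattern noted after the values were seen. Replicate 1 was the lowest library of every group for 5 genes, MVK, MVD, LSS, SREBF1 and SCAP, and the highest of every group for 2, SC5D and STARD4. LSS was also highest in replicate 5 of every group, and its same-numbered miR-34a-RS and miR-34a-WT libraries differed by 0.01, 0.07, 0.11 and 0.07 on the log2 scale, a smaller span than that within either group. What a replicate number stands for is not given in the labels.

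The steady level of these transcripts differed widely. Per kilobase of exon, in CPM per kb with the exon lengths of GENCODE 29, SCD had 148 with miR-34a-RS, 143 with miR-34a-WT and 171 in control, ACLY had 162 in control and FASN had 126 in control. These enzymes of fatty acid synthesis were the 3 highest of the 34 genes in control. SREBF2 had 19.4 CPM per kb with miR-34a-RS, 14.1 with miR-34a-WT and 22.9 in control, and it ranked 16 of 34 in control. SREBF1 had 8.95 with miR-34a-RS, 8.22 with miR-34a-WT and 7.65 in control, where it ranked 26. The lowest level in control was that of CYP51A1, at 1.60 CPM per kb. Annotated pseudogene copies of FDPS, CYP51A1, HSD17B7, SCD and FADS2 averaged at most 0.372 CPM each, and how reads that fit a gene and its copy were counted is not given, so these levels are less certain.

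Seed matches were counted in the principal transcripts. An 8mer or 7mer-m8 lay in the 3′ UTR of 4 of the 34 (11.8%), namely HMGCS1, DHCR7, FASN and LPIN1, against 16% of 13608 tested genes with an annotated 3′ UTR. In the coding sequence 8 of the 34 (23.5%) held one, against 20.1%. The longest match there was an 8mer in SREBF2, SREBF1, LPIN1 and ACACA, and a 7mer-m8 in FASN, LSS, SCAP and ACLY. Of these genes SREBF2 was called between the miRNAs in both fits, and SREBF1 and FASN only with the replicate block. Against control SREBF2 and FASN were lower with both duplexes, and LSS was lower with miR-34a-WT. LPIN1 was higher with both duplexes and SREBF1 with miR-34a-RS. ACACA, SCAP and ACLY were not called against control over all 14 libraries. An 8mer or 7mer-m8 with AGCT upstream at a distance of 1 to 15 bases was found in 1 of the 34, SREBF2 (2.94%), against 3.89% of the 13608 genes. The 3′ UTR matches of HMGCS1, DHCR7, FASN and LPIN1 had no AGCT within that distance. Of these 4 genes HMGCS1 was called between the miRNAs, FASN was called only with the replicate block, and DHCR7 and LPIN1 were called in neither fit. Against control HMGCS1, DHCR7 and FASN were lower with both duplexes, and LPIN1 was higher with both. Of the 7 genes higher with miR-34a-RS, 3 had no match of 6 bases or more in the 3′ UTR of the transcript used, SREBF2, MVD and TM7SF2. Each of these held a match elsewhere. SREBF2 held the coding 8mer, MVD the 6mer across the stop codon and TM7SF2 2 coding 6mers.

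Promoters were compared because so many of these genes are known SREBP targets. Windows of 250 bases before to 50 bases after a gene start were held by RefSeq (GRCh38.p14) for 30 of the 34 genes. Motifs were searched on both strands: TCACNCCAC, a form of the sterol regulatory element, TCACGTGA, a palindromic E-box that also binds SREBP, and CCAAT, the motif of the cofactor NF-Y. TCACNCCAC was found in the SREBF2 window only (1 of 30, 3.33%), against 1.13% of 35116 windows of the same length and 1.39% of gene symbols with any window. TCACGTGA was found in INSIG1 only (3.33%), against 0.98% of windows and 1.18% of symbols. CCAAT was found in 21 of 30 (70.0%), against 34.6% of all windows and 39.7% of symbols. Of the genes called higher between the miRNAs it was found in 6 of the 6 with a window without the replicate block, and in 10 of the 13 with a window with the block, where PMVK, SREBF1 and FADS1 had none. No match says only that these letters are not in this window. The 250 bases before the gene start of SREBF2 and MVD, the list genes with the largest differences between the miRNAs, are shown with TCACNCCAC and CCAAT (or ATTGG, its other strand) in capitals.
SREBF2 (chr22:41832855-41833104, plus strand): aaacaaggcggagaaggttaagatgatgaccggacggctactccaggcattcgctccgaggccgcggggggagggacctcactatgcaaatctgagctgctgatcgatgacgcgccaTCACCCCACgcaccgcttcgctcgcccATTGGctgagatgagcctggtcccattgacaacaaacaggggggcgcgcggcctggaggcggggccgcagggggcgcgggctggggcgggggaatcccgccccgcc
MVD (chr16:88663092-88663341, minus strand): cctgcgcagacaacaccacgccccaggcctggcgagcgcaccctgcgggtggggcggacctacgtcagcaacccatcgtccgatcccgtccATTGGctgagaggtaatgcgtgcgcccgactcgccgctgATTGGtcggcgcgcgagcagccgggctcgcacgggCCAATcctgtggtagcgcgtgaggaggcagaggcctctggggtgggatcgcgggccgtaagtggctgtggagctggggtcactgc
In the SREBF2 window TCACNCCAC began at -133 from the gene start and CCAAT at -106, while the MVD window held 3 CCAAT motifs, at -159, -120 and -85, and no TCACNCCAC.

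The wider pathway was read from 95 further genes in 6 lists, 91 of them tested. Between the miRNAs 3 of the 91 were higher with miR-34a-RS and 1 lower, beside the 1.03% and 0.535% of all tested genes, with a median log2 fold change of -0.0029. With the replicate block 11 were higher and 7 lower, beside 5.97% and 6.79%. The higher genes were ACSL4, APOE and ERLIN1 and the lower was SAR1B, a GTPase of vesicles that leave the endoplasmic reticulum. APOE, the lipoprotein component, averaged 7.41 ± 0.568 CPM with miR-34a-RS, 5.24 ± 0.517 CPM with miR-34a-WT and 5.62 ± 0.879 CPM in control (SD, n = 4, 5 and 5; log2 difference between the miRNAs 0.50, adjusted p = 0.00634), and SAR1B averaged 72.3 ± 4.55 CPM with miR-34a-RS, 86.3 ± 5.49 CPM with miR-34a-WT and 84.98 ± 3.32 CPM in control (log2 difference -0.26, adjusted p = 0.0102). APOE and SAR1B were named after their values were seen. With miR-34a-RS 21 of the 91 were higher than control and 24 lower, beside 16.2% and 18.4% of all tested genes, and with miR-34a-WT 25 were higher and 24 lower, beside 18.9% and 21.3%.

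Of the list of further fatty acid synthesis and elongation, 1 of 21 tested genes was higher in miR-34a-RS than in miR-34a-WT libraries and 0 were lower. ACSL4, which activates long-chain polyunsaturated fatty acids, averaged 49.3 ± 5.13 CPM with miR-34a-RS, 32.97 ± 2.13 CPM with miR-34a-WT and 74.3 ± 0.742 CPM in control (SD, n = 4, 5 and 5). It was higher by 0.58 between the miRNAs (SE 0.06, adjusted p = 1.22e-06), with -0.59 with miR-34a-RS and -1.17 with miR-34a-WT against control. Its 3′ UTR holds an 8mer with AGCT 4 bases away by the count used above. Among the further genes, TMEM97, MMAB and GPAT4 also held an 8mer or 7mer-m8 with AGCT in the 3′ UTR. LPIN3 held one in the coding sequence. None of these other genes was called between the miRNAs without the replicate block. ERLIN1 and APOE, also called higher between the miRNAs, held no such pairing. ERLIN1 had a 7mer-m8 and a 6mer in the 3′ UTR without AGCT, and APOE had no match in the 3′ UTR or coding sequence.
ACSL4, 3′ UTR, 8mer (chrX:109642109-109642138, minus strand): ccccaactcccaaaAGCTagaaCACTGCCA
With miR-34a-RS 6 of the 21 genes were higher than control and 5 lower, beside 16.2% and 18.4% of all tested genes. With miR-34a-WT 9 were higher and 4 lower, beside 18.9% and 21.3%. SCD5, another stearoyl-CoA desaturase, fell by 1.39 with miR-34a-RS and by 1.25 with miR-34a-WT, and ELOVL2, an elongase of polyunsaturated fatty acids, by 0.63 with miR-34a-RS and by 0.64 with miR-34a-WT. Neither was called between the miRNAs, with log2 differences of -0.14 and 0.01.

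In the list of SREBP processing and turnover, 1 of 22 genes was higher and 1 lower between the miRNAs, while with miR-34a-RS 7 were higher than control and 8 lower (34.6% of all tested genes were called), and with miR-34a-WT 7 were higher and 7 lower (40.2%). ERLIN1, an endoplasmic reticulum protein that binds cholesterol and restrains SREBP, averaged 47.1 ± 1.43 CPM with miR-34a-RS, 37.5 ± 1.41 CPM with miR-34a-WT and 69.8 ± 2.37 CPM in control (SD, n = 4, 5 and 5). It was higher by 0.33 in miR-34a-RS than in miR-34a-WT libraries (adjusted p = 1.77e-04) and fell against control by 0.57 with miR-34a-RS and by 0.90 with miR-34a-WT. MBTPS2, a protease that releases SREBP, averaged 93.1 ± 8.27 CPM with miR-34a-RS, 96.2 ± 6.32 CPM with miR-34a-WT and 52.4 ± 2.54 CPM in control, and SEC24A, a coat protein of vesicles that carry SCAP and SREBP, averaged 87.2 ± 8.0 CPM with miR-34a-RS, 88.3 ± 5.19 CPM with miR-34a-WT and 52.4 ± 2.07 CPM in control. MBTPS2 rose by 0.83 with miR-34a-RS and by 0.88 with miR-34a-WT against control, SEC24A rose by 0.73 with miR-34a-RS and by 0.75 with miR-34a-WT, and their log2 differences between the miRNAs were -0.05 and -0.02.

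Of other reported SREBP targets, 7 of 8 genes were tested and 0 were called between the miRNAs, with 2 at an unadjusted p under 0.05 and 3 higher with the replicate block. RDH11, a retinol dehydrogenase, averaged 40.9 ± 1.80 CPM with miR-34a-RS, 40.7 ± 1.92 CPM with miR-34a-WT and 114 ± 5.08 CPM in control (SD, n = 4, 5 and 5), and it fell against control by 1.48 with miR-34a-RS and by 1.49 with miR-34a-WT. TMEM97, an endoplasmic reticulum protein of sterol metabolism, fell by 0.27 with miR-34a-RS and by 0.41 with miR-34a-WT. Its log2 difference between the miRNAs was 0.14 (adjusted p = 0.145, and 0.00219 with the replicate block). FABP3, a fatty acid binding protein at about 2 to 3 CPM, gave -0.35 (adjusted p = 0.0522) with miR-34a-RS and fell by 0.66 with miR-34a-WT (adjusted p = 4.08e-04).

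In sterol transport, storage and efflux, 1 of 17 genes was higher between the miRNAs, 3 were higher and 4 lower with miR-34a-RS against control, where 34.6% of all tested genes were called, and 3 higher and 5 lower with miR-34a-WT, where 40.2% were called. SOAT1, which esterifies cholesterol for storage, fell by 0.30 with miR-34a-RS and by 0.45 with miR-34a-WT, and SCARB1, a lipoprotein receptor, by 0.25 with miR-34a-RS and by 0.30 with miR-34a-WT. OSBP, a sterol exchanger, rose by 0.18 with miR-34a-RS and by 0.15 with miR-34a-WT. In the isoprenoid branches 0 of 12 were called between the miRNAs, with 1 at an unadjusted p under 0.05 and 1 higher with the replicate block, and against control the higher and lower counts were 1 and 3 with miR-34a-RS (34.6% of all genes called) and 2 and 3 with miR-34a-WT (40.2%). RABGGTB, a subunit of the transferase that prenylates Rab proteins, fell by 0.19 with miR-34a-RS and by 0.16 with miR-34a-WT, and GGPS1, geranylgeranyl diphosphate synthase, rose by 0.24 with miR-34a-RS and by 0.21 with miR-34a-WT. In glycerolipid synthesis 0 of 12 were called between the miRNAs, with 1 at an unadjusted p under 0.05 and 2 higher with the replicate block, and against control the higher and lower counts were 3 and 2 with miR-34a-RS (34.6% of all genes called) and 4 and 2 with miR-34a-WT (40.2%). DGAT1, which makes triglycerides, fell by 0.32 with miR-34a-RS and by 0.46 with miR-34a-WT, GPAT3, an acyltransferase, by 0.29 with miR-34a-RS and by 0.37 with miR-34a-WT, and LPIN2, a phosphatidate phosphatase, rose by 0.27 with miR-34a-RS and by 0.19 with miR-34a-WT. Each of these log2 changes against control passed the test.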

How the data were processed

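Per the labels' protocols, libraries were made with the TruSeq RNA v2 kit, which does not mark strand. The authors deposited raw counts of reads per gene in 1 table of 63140 genes by 14 libraries, not normalised, since totals ranged from 22.24 to 36.26 M. Build GRCh38, edgeR 3.42.4, STAR 2.7.11a and Subread 2.0.3 (with featureCounts) are named by the submitters' processing notes. The annotation release and the strand setting of the counting are not given in the sources used here. Symbols were matched to 62541 gene identifiers (99.05%).

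Counts were tested with edgeR 4.0.16 (limma 3.58.1, R 4.3.3): filterByExpr by group left 18321 genes, with TMM factors, robust glmQLFit over all 14 libraries with 3 group means, and glmQLFTest, two-sided. Benjamini-Hochberg adjustment ran over all tested genes, with a threshold of 0.05. Intervals are at the 95% level. CPM used TMM-scaled totals, with, for log2 values, a prior count of 2. The procedure was tested on simulated data. The simulated libraries were drawn independently, so that test did not cover the shared deviation of same-numbered libraries. Every pair of replicates differed by more than sampling noise (chi-square per degree of freedom 2.73 to 14.2 over 26 pairs).

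Groups came from the treatment in the labels. Groups share replicate numbers. Deviations from group means were correlated over 9901 genes with a mean of at least 10 CPM: same-numbered miR-34a-RS and miR-34a-WT libraries gave 0.396 to 0.779, with a mean of 0.607, where differently numbered ones averaged -0.144. Each correlated best with its own number. For the comparison of the miRNAs the numbers therefore count as pairs, from the data and not from the labels. Deviations from a group mean cancel out within the group. Negative averages of differently numbered libraries, here and against control, thus largely follow from positive same-number averages and are no separate evidence. Against control same-number correlations averaged 0.273 for miR-34a-RS and 0.324 for miR-34a-WT, where differently numbered libraries averaged -0.0687 and -0.0768. The lowest same-number values were -0.0569 and -0.203. Own-number correlation was the best for 2 of 4 miR-34a-RS and 3 of 5 miR-34a-WT libraries. Pairing with control was thus partial, and none was assumed there.

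Genes given library by library were those called between the miRNAs with or without the block, and the 8 largest changes against control for each miRNA. Up to 3 genes of each further list were named by smallest adjusted p, and a gene this rule names is not reported here. The members and lists were chosen with earlier results of these data known. Alternatives, 20 for each comparison, were DESeq2 1.42.0, RLE and upper-quartile size factors, no filter on low counts, the compared groups alone, the replicate block and leaving out each of the 14 libraries. Sites were searched in coding sequence and 3′ UTR of the principal transcript of GENCODE 29, which holds 99.71% of counts by gene identifier. Searches used Python 3.11.15, numpy 2.4.6 and pandas 2.3.3, and figures matplotlib 3.10.9.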

Additional observations from a re-analysis of the deposited data

Results flagged for a closer look

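In 7 of 102 sets of libraries (a gene in a group of 4 or 5) 1 library stood far from the rest of its group, where chance alone would mark about 1 in 20. HMGCS1 was highest in control replicate 1, at 102 CPM, with the other control libraries between 94.0 and 95.6 CPM. SQLE was highest in miR-34a-WT replicate 3, at 165 CPM, with the others between 157 and 158 CPM. TM7SF2 was lowest in miR-34a-RS replicate 1, at 28.2 CPM, with the others between 33.9 and 34.4 CPM. DHCR7 was highest in miR-34a-WT replicate 3, at 92.8 CPM, with the others between 87.0 and 87.8 CPM, and lowest in control replicate 1, at 141 CPM, with the others between 157 and 163 CPM. ACSS2 was highest in miR-34a-WT replicate 4, at 24.9 CPM, with the others between 22.3 and 23.1 CPM. LPIN1 was lowest in control replicate 3, at 21.4 CPM, with the others between 25.4 and 25.8 CPM.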

How the results depend on the processing

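Between the miRNAs the count of list genes higher was 4 in a fit of these 2 groups alone and 17 with the replicate block, and from 3 to 10 when 1 library was left out. The count of all genes higher was 1094 with the block and from 110 to 344 with 1 library left out. The count of all genes lower was 191 with DESeq2, 63 in the fit of these 2 groups alone, 1244 with the block, and from 31 to 417 with 1 library left out. The cause was not tested. No value that passed the test changed direction under any of the 20 alternatives. Among values that had not passed there were 52 changes of sign, counted once for each gene, comparison and alternative. Of called list genes, 3 of 7 between the miRNAs, 12 of 17 with miR-34a-RS against control and 12 of 19 with miR-34a-WT against control kept their call under all 20. Against control same-numbered libraries correlated only in part, and no pairing was assumed. There the replicate block called 20 list genes with miR-34a-RS (37.3% of all genes) and 21 with miR-34a-WT (47.1%). Other scalings moved the median of all genes by at most 0.0189 on the log2 scale, and no filter on low counts by at most 0.0224. At 5.74 CPM in control, CYP51A1 had the widest interval of the 34 genes, -0.19 to 0.49 between the miRNAs.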
